A study of Mus musculus with 20 samples.

Results

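Immediate early genes were followed in kidneys of aged mice whose blood systems came from bone marrow transplants. The set is a named list of 31 genes, taken by symbol from each of 2 deposited count tables, chosen with earlier results of these data known. All 31 were listed in both tables. Of these, 28 passed the filter on low counts among 14978 tested genes of 26608 in a table of 12 kidneys, and 30 passed among 16956 tested genes of 30809 in a table of 8 kidneys. The first table held LOY animals (numbered 5, 8, 9, 10, 14 and 18, n = 6) and Control animals (3, 11, 12, 13, 16 and 17, n = 6), which differ in the label for the transplanted hematopoietic system. The second held animals with LOY hematopoiesis only, labelled LOY + ABT263 (15, 16, 17 and 18, n = 4) or LOY + Control (6, 8, 9 and 10, n = 4), where Control is the control compound. LOY stands for loss of the Y chromosome, here in transplanted blood-forming cells, while the kidney itself is that of the transplanted host. ABT-263 is navitoclax, an inhibitor of BCL2-family survival proteins that is used as a senolytic, an agent meant to kill senescent cells. How the LOY cells were made, the donors, the sex, strain and exact age of the mice, and the dose and timing of the compounds are not stated in the labels used here.

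Immediate early genes are transcribed within minutes of a stimulus, from regulators already in the cell, and so need no new protein. Growth factor, stress and calcium signals reach them through ERK, JNK and p38 kinases, which act on SRF with its ternary complex partners and on CREB and ATF factors bound at their promoters. Many of the products are transcription factors: FOS and JUN proteins pair to form AP-1, and the EGR, KLF and NR4A families bind their own sites. Others end the response, among them the dual-specificity phosphatases that inactivate MAP kinases and ZFP36, which hastens decay of AU-rich mRNAs. In kidney these genes respond to ischemia, toxins and stretch, and also to the handling of the organ at collection.

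The 3 members that passed the test with LOY were Atf3, Jun and Klf6, and their promoters are shown to place the letters that such factors read, beside that of Fos, the classic partner of JUN. RefSeq (GRCm38.p6) had promoters for 24 of the 31 members, 33 in all. The 200 bases before the RefSeq start are printed 5′ to 3′ along the gene, for Atf3 at chr1:191183334-191183533 (minus strand), for Jun at chr4:95052223-95052422 (minus strand), for Klf6 at chr13:5861289-5861488 (plus strand) and for Fos at chr12:85473690-85473889 (plus strand). Capitals mark TGACNTCA, a CREB and ATF site with 1 central base left free, and TGACGT, a shorter part of that site, on either strand.
Atf3: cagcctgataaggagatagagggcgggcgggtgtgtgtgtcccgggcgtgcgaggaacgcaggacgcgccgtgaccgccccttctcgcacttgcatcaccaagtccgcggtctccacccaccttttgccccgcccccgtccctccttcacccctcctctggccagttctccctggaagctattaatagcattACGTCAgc
Jun: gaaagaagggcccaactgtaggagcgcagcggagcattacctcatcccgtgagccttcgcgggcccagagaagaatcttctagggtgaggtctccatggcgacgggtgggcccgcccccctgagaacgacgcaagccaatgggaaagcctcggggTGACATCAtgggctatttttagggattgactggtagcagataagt
Klf6: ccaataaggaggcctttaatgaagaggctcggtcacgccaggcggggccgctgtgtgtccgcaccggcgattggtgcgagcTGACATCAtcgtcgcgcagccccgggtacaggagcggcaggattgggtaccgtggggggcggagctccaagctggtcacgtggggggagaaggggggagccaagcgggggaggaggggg
Fos: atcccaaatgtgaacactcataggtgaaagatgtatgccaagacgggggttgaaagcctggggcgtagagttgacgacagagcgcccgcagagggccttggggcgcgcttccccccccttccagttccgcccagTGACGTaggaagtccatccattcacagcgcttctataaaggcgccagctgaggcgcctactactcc
The letters of TGACNTCA lay 45 to 38 bases before the Jun start and 119 to 112 bases before the Klf6 start, in both as TGACATCA. The shorter TGACGT lay 8 to 3 bases before the Atf3 start, on the opposite strand, and 66 to 61 bases before the Fos start. Both motifs were chosen after the sequences were seen, TGACGT lies within the full site TGACGTCA, and the full site is one form of TGACNTCA. Scanning 250 bases on both strands, TGACNTCA was present in 18.2% of the 33 member promoters (Btg2, Dusp1, Jun, Klf6 and Maff) and in 7.49% of all 32851 RefSeq promoters. TGACGT was present in 27.3% of member promoters (Atf3, Btg2, Dusp1, Dusp5, Egr2, Fos and Maff) and in 6.47% of all, and the full site in 9.09% (Btg2, Dusp1 and Maff) and in 1.55% of all. The AP-1 letters TGANTCA, which FOS and JUN pairs read, were present in 3.03% of member promoters (Csrnp1) and in 6.75% of all. The CArG box that SRF binds was present in 18.2% of member promoters (Dusp5, Egr2 and Zfp36) and in 1.47% of all, and the ETS letters CCGGAA of its partners in 9.09% and in 12.0%. The EGR letters GCGNGGGCG were present in 30.3% of member promoters and in 4.70% of all, and TATAAA in 12.1% and in 12.4%. These matches describe letters within the window, and members often have more than 1 start. The shares count promoters, and overlapping Egr2 promoters hold the same CArG box and the same TGACGT, so 1 site was counted more than once. By gene, the CArG box was present in 3 and TGACGT in 7 of the 24 members, and no share by gene was taken over all promoters.

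Gene counts per kidney lay between 13332563 and 19386408 in the first table and between 14587809 and 20791633 in the second. LOY animal 8 stood apart in the first table, with a median correlation of 0.906 to the other kidneys, where the other 11 had 0.952 to 0.980. In the second, control-compound animal 6 had the lowest median correlation, 0.967, and 11.1% of its counts were mitochondrial, where the other 7 kidneys had 7.91% to 9.51%. Animal numbers followed the groups: 4 of 6 LOY animals were numbered 10 or below and 5 of 6 Control animals above 10, and in the second table the 2 groups shared no number range. Markers of the proximal tubule summed to 6485 to 17106 CPM (read counts scaled to library size) over all 12 kidneys and to 8575 to 13372 CPM over the 8. Summed CPM of 4 Y-linked genes (Ddx3y, Eif2s3y, Kdm5d and Uty) lay between 141 and 174 in LOY and between 168 and 192 in Control kidneys, and Y transcripts were present in every kidney.

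Immediate early genes were higher in LOY than in Control kidneys over most of the list. Of 28 tested members 26 had a positive log2 fold change, a share of 92.9%, beside 52.3% of all tested genes, and the median was 0.59, beside 0.019 over all genes. The stress factor Atf3, the KLF factor Klf6 and the AP-1 subunit Jun rose at an adjusted p under 0.05 (edgeR quasi-likelihood test, Benjamini-Hochberg over all genes). These 3 are 10.7% of the tested members, beside 1.11% of all genes that rose, and 0 members fell, beside 0.0601% of all genes. At an unadjusted p under 0.05 in edgeR, 18 members were higher (64.3%, beside 13.5% of all genes) and 0 were lower (beside 9.33%). Every LOY kidney lay above every Control kidney for 1 member, Klf6 (3.57% of members, beside 1.56% of all genes), and for 0 members did all lie below (beside 0.461%).

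The number of calls changed with the kidneys kept, over all genes as well as over members. With all kidneys the 3 members passed narrowly, at edgeR adjusted p of 0.0412 to 0.0476. Leaving out any 1 of LOY animals 9 and 10 or Control animals 11, 12, 13, 16 and 17 left 0 members past the threshold. Over all tested genes these fits called 96, 1, 3, 2, 9, 0 and 0 in that order, beside 176 with all kidneys. In the same fits 2300 to 2870 genes had an unadjusted edgeR p under 0.05, beside 3418 with all kidneys. The members' median log2 fold change was 0.48 to 0.60 there. Leaving out Control animal 3 gave 8 members (607 genes in all). Without LOY animal 8 there were 4 members (223 genes), and without LOY animals 8 and 10 there was 1 (29 genes), Klf6. With animal number above 10 as a term 0 members (0 genes) passed. Among the animals above 10 alone (LOY 14 and 18 against 5 Control kidneys) 4 members (451 genes) passed: Atf3, Klf6, Egr2 and Myc. With the number term Atf3 had 1.28 (edgeR adjusted p = 0.147), Klf6 0.87 (adjusted p = 0.103) and Jun 0.87 (adjusted p = 0.132). Some members shrank with the term, among them Klf2 (0.29, from 0.59), Gadd45b (0.28, from 0.78) and Nr4a2 (0.62, from 1.16). Others grew, among them Nr4a1 (0.83, from 0.65) and Ier3 (0.52, from 0.39). The median log2 fold change stayed positive in these settings, 0.50 with the number term, 0.53 above number 10 alone and 0.40 without LOY animals 8 and 10. These kidneys were sequenced whole, so a change in the number of cells of a type and a change in RNA per cell cannot be told apart.

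**Figure D1:**
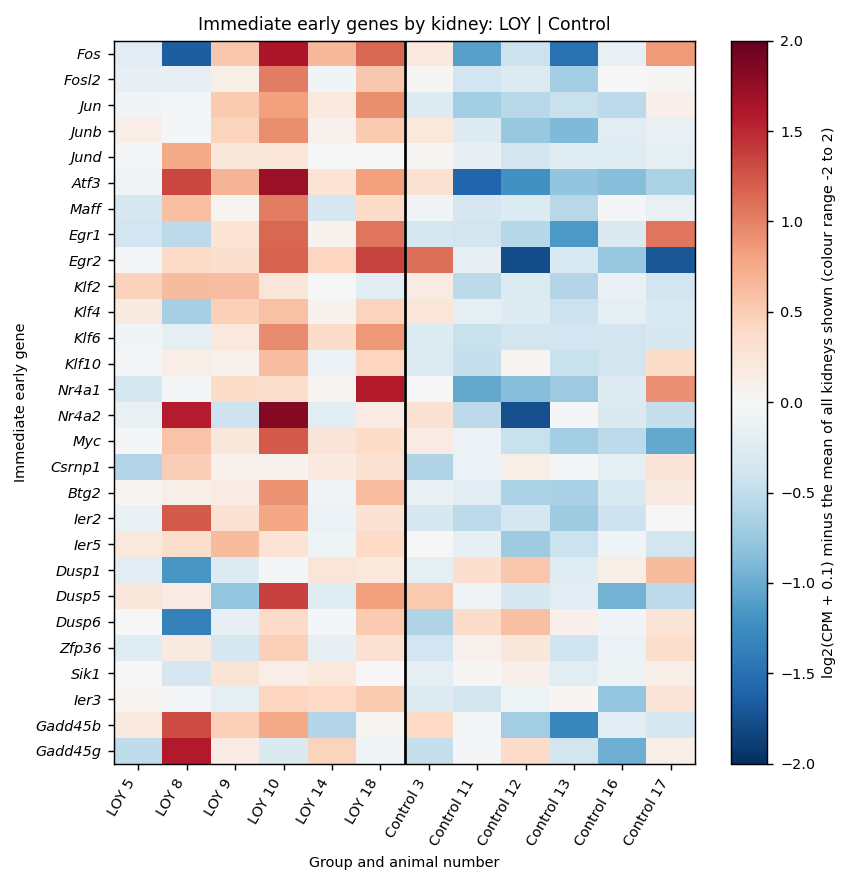
Each cell is the log2(CPM + 0.1) of an immediate early gene (rows) in a kidney (columns) minus the mean over all 12 kidneys, with LOY kidneys left of the black line and Control kidneys right of it, and red for higher. The columns of LOY animals 10 and 18 are red in most rows and those of Control animals 11, 12, 13 and 16 blue or pale blue in most. The Dusp1 and Dusp6 cells of LOY animal 8 are blue.

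Kidneys differed among themselves in how high the whole set stood. The per-kidney score, the median over tested members of the log2 CPM minus the mean of all 12 kidneys, was 0.77 in LOY animal 10, 0.44 in LOY animal 18 and 0.23 in LOY animal 9. It was 0.15, 0.062 and -0.048 in LOY animals 8, 14 and 5, against 0.015 and -0.030 in Control animals 17 and 3. The other 4 Control kidneys had scores between -0.44 and -0.24, so the groups overlapped through LOY animal 5 and Control animals 3 and 17. LOY animal 10 had the highest level of its group for 14 of 28 members, and Control animals 17 and 3 for 13 and 12. Without LOY animals 10 and 18 and Control animal 17, left out together after the values were seen, 0 members passed and 25 of 28 stayed positive, with a median of 0.45. Spread within groups was wide for these genes: the median coefficient of variation of members was 33.5% in LOY and 24.3% in Control kidneys, beside 24.6% and 14.4% over all tested genes.

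Atf3 encodes a stress-induced bZIP factor that pairs with JUN proteins. Its level lay between 5.08 and 18.0 CPM in LOY kidneys (median 9.11), against 1.72 and 6.65 CPM in Control kidneys (median 3.00). Control animal 3 held the 6.65 and lay above LOY animals 5 and 14, while the other 5 Control kidneys lay below every LOY kidney, at no more than 3.42 CPM. The log2 fold change was 1.62 ± 0.35 (SE, n = 6 each), with an edgeR adjusted p of 0.0412. The estimate stayed positive in all other settings, from 1.15 to 1.93, and passed in 13 of 24. The gene lies on chromosome 1 at 191170296 to 191218039 (GRCm38, minus strand) and shares no exon with another annotated gene. Maff, a small MAF protein that lacks an activation domain, had 0.55 ± 0.22 (adjusted p = 0.182), and 4 of 6 LOY kidneys stood above all Control kidneys.

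Among the JUN subunits of AP-1, Jun lay between 61.3 and 122 CPM in LOY kidneys (median 82.6), against 39.8 and 68.1 CPM in Control kidneys (median 45.5). LOY animals 18 and 10 were highest, and Control animal 17 alone reached above LOY animals 5 and 8. Jun had a log2 fold change of 0.82 ± 0.19 and an edgeR adjusted p of 0.0476. Over the other settings its estimate ran from 0.66 to 1.01 and passed in 7 of 24. It did not pass with median-ratio scaling, totals alone or either of the other filters. The single exon of Jun on chromosome 4 (95049034 to 95052222, minus strand) partly overlaps the antisense gene Junos, whose reads cannot be told apart where strand was not used in counting. Junb, Jund, Csrnp1, Dusp1, Dusp5, Zfp36 and Fosl1 also share exon bases with a neighbouring gene. Junb, which often restrains JUN, lay between 46.7 and 90.3 CPM in LOY kidneys (median 58.3), against 25.6 and 54.9 CPM in Control kidneys (median 40.1). The groups overlapped, with Control animal 3 above 3 LOY kidneys, and the log2 fold change was 0.68 ± 0.20 (edgeR adjusted p = 0.0957). Jund, the steadily expressed subunit, lay between 365 and 634 CPM in LOY kidneys (median 407), against 290 and 380 CPM in Control kidneys (median 324). LOY animal 8 held the highest value, and the log2 fold change was 0.42 ± 0.14 (edgeR adjusted p = 0.135).

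The FOS partners did not pass; Fos here, and Egr1, Nr4a1 and Dusp1 further on, are described although they are not among the smallest p, chosen after their values were seen. Fos lay between 0.814 and 8.78 CPM in LOY kidneys (median 4.21), against 0.915 and 5.05 CPM in Control kidneys (median 2.25). The lowest LOY kidney, animal 8, was below every Control kidney, and the log2 fold change of 0.84 ± 0.48 had an edgeR adjusted p of 0.296. Fosl2, a FOS-related subunit with longer-lived mRNA, had 0.48 ± 0.20 (edgeR adjusted p = 0.193). Fosb and Fosl1 were below the count filter, with 34 reads over the LOY and 40 over the Control kidneys for Fosb, and 20 against 6 for Fosl1.

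Klf6, a zinc finger factor induced in injured epithelium, was the member whose groups were apart. It lay between 52.9 and 115 CPM in LOY kidneys (median 73.7), against 43.9 and 49.5 CPM in Control kidneys (median 46.5). The Control kidneys were close together, with a coefficient of variation of 4.03% against 32.7% in LOY kidneys. The log2 fold change was 0.79 ± 0.17 and the edgeR adjusted p 0.0436; over the other settings the estimate ran from 0.47 to 1.03 and passed in 12 of 24. The gene lies on chromosome 13 at 5861482 to 5870394 (plus strand) and shares no exon with another annotated gene. Klf2, a factor of endothelium and resting lymphocytes, lay between 27.1 and 48.8 CPM in LOY kidneys (median 40.4), against 20.9 and 35.6 CPM in Control kidneys (median 25.1). LOY animals 14 and 18 were within the Control range, and the log2 fold change was 0.59 ± 0.17 (edgeR adjusted p = 0.0917). For Klf2 it was 0.29 with the number term and 0.27 above number 10 alone. Klf4, an epithelial differentiation factor, lay between 10.3 and 24.4 CPM in LOY kidneys, against 12.1 and 19.4 CPM in Control kidneys, with 0.41 ± 0.19. Klf10, a target of TGF-beta, lay between 24.1 and 40.0 CPM in LOY kidneys, against 18.9 and 33.7 CPM in Control kidneys, with 0.37 ± 0.17. The groups overlapped in both.

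The EGR and NR4A factors, which follow acute signals steeply, varied widely between kidneys of a group. Egr1 lay between 13.1 and 41.5 CPM in LOY kidneys (median 21.2), against 8.43 and 39.7 CPM in Control kidneys (median 14.6). LOY animals 10 and 18 and Control animal 17 all stood near 40 and the rest at 22.7 or below, and the log2 fold change was 0.52 ± 0.37 (edgeR adjusted p = 0.383). Nr4a1, an orphan nuclear receptor, was high in LOY animal 18 (21.8 CPM) and Control animal 17 (13.7 CPM), with 0.65 ± 0.37. Egr2 had 1.01 ± 0.47 and Nr4a2 1.16 ± 0.47, both at levels of 0.388 to 5.78 CPM. Egr2 was 0.38 without LOY animals 10 and 18 and Control animal 17, and it passed in voom (adjusted p = 0.0413) at a higher value than in edgeR, and Nr4a2 was 0.21 without LOY animals 8 and 10 and 0.63 in voom. Egr3 was below the filter, with 42 reads over the LOY and 17 over the Control kidneys.

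Among growth and coregulator genes, the growth factor-induced transcription factor Myc lay between 15.6 and 37.3 CPM in LOY kidneys (median 19.9), against 7.77 and 18.0 CPM in Control kidneys (median 11.4). Control animal 3 was the single Control kidney above a LOY kidney, animal 5, and the log2 fold change was 0.89 ± 0.23 (edgeR adjusted p = 0.0673). Ier5, which activates heat shock factor 1, lay between 35.2 and 58.1 CPM in LOY kidneys (median 46.4), against 22.9 and 37.2 CPM in Control kidneys (median 31.1). Here LOY animal 14 alone lay below a Control kidney, animal 3, and 0.59 ± 0.14 missed the threshold (edgeR adjusted p = 0.0506). Ier2, a nuclear protein of the same family, lay between 19.3 and 50.1 CPM in LOY kidneys (median 26.0), against 12.9 and 21.3 CPM in Control kidneys (median 16.3). Control animal 17 stood above LOY animals 5 and 14, and the log2 fold change was 0.85 ± 0.22 (edgeR adjusted p = 0.0686). Btg2, an antiproliferative cofactor of mRNA deadenylation, lay between 29.2 and 57.2 CPM in LOY kidneys (median 33.6), against 19.4 and 34.6 CPM in Control kidneys (median 25.5). Only LOY animals 10 and 18 exceeded all Control kidneys, and the log2 fold change was 0.61 ± 0.19 (edgeR adjusted p = 0.112). Csrnp1, a nuclear factor induced by AXIN1, had 0.20 ± 0.18.

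Genes that end or limit the response, and stress sensors, were mixed and did not pass. Dusp1, the phosphatase of p38 and JNK, lay between 15.3 and 40.7 CPM in LOY kidneys (median 31.9), against 29.2 and 53.9 CPM in Control kidneys (median 40.5). LOY animal 8 was the lowest and Control animal 17 the highest, and the log2 fold change was -0.38 ± 0.21 (edgeR adjusted p = 0.293). The ERK phosphatase Dusp6 had -0.15 ± 0.25, a sign that turned in 3 other settings, and the nuclear ERK phosphatase Dusp5 had 0.64 ± 0.35. Zfp36 had 0.08 ± 0.17, which turned in 4 settings, and the salt-inducible kinase Sik1 had 0.11 ± 0.11. Ier3, a survival protein, had 0.39 ± 0.17, and the GADD45 stress sensors Gadd45b and Gadd45g had 0.78 ± 0.31 and 0.57 ± 0.32. Ier3 lay between 33.2 and 54.7 CPM in LOY kidneys, against 22.1 and 45.3 CPM in Control kidneys. Gadd45b lay between 6.66 and 24.9 CPM in LOY kidneys, against 3.99 and 13.3 CPM in Control kidneys. The groups overlapped for all 8 of these genes.

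**Figure D2:**
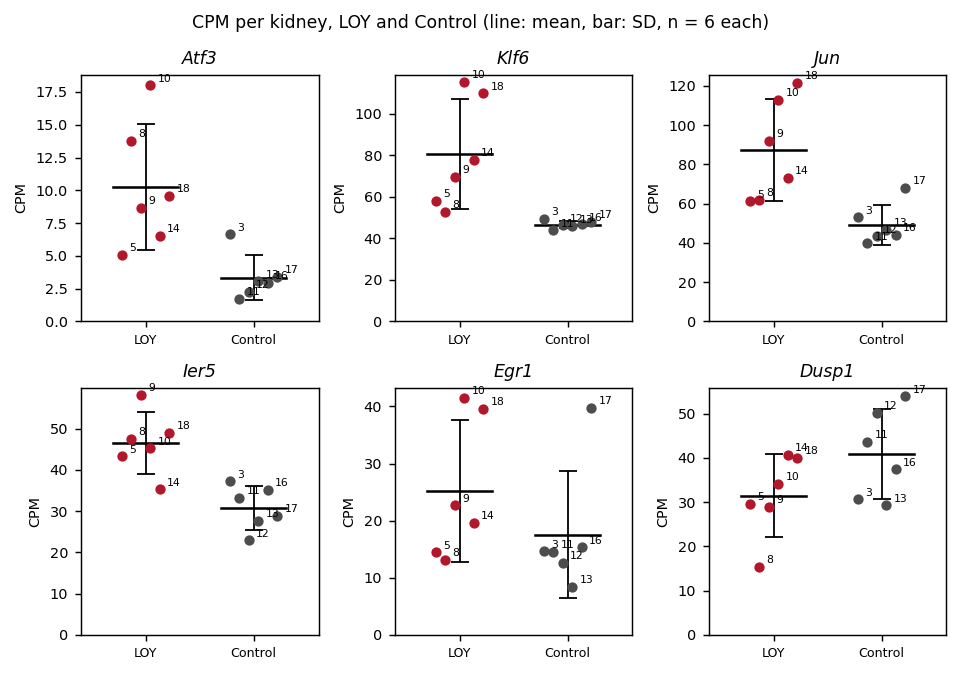
CPM of 6 immediate early genes in each kidney, LOY left and Control right, with animal numbers beside the points, a line at the mean and a bar of 1 SD (n = 6 each). Klf6 is the gene whose groups are apart, and Control animals 3 (Atf3) and 17 (Egr1, Jun) stand above the other Control kidneys.

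Members were expressed at very different levels. Per kilobase of annotated exon, the mean level in LOY kidneys was highest for Jund (263 CPM per kb), then Gadd45g (63.0), Ier3 (39.3), Sik1 (29.9), Jun (27.3) and Junb (27.0). In Control kidneys the same genes led, with 197 CPM per kb for Jund, 42.5 for Gadd45g, 30.0 for Ier3, 27.8 for Sik1, 16.8 for Junb and 15.4 for Jun. Levels of Jun and Junb in either group differed by less than their spread. Fos stood far lower, at 1.88 CPM per kb in LOY and 1.06 in Control kidneys, and the lowest were Fosb, Fosl1 and Egr3, at 0.101 CPM per kb or less in both groups.

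Genes upstream and downstream were read from lists that leave out the members. Of 33 other immediate early genes 4 rose with LOY and 0 fell (median log2 fold change 0.29): with the smallest p these were the GTPase Rhob (0.75 ± 0.15), the C/EBP factor Cebpd (1.01 ± 0.21) and Phlda1 (0.79 ± 0.17). Of 26 genes known as AP-1 or EGR1 targets 7 rose and 0 fell (median 0.86), led by the hyaluronan receptor Cd44, also on the tubular injury list (1.33 ± 0.21), the adhesion molecule Icam1 (0.80 ± 0.16) and osteopontin, Spp1 (1.25 ± 0.24). Further, 0 of 31 ERK and stress kinase genes, 0 of 16 genes for SRF, TCF and CREB regulators, 0 of 17 other AP-1 partners and 0 of 17 other ERK feedback inhibitors passed in edgeR, with medians between -0.11 and 0.054, beside 0.019 over all genes. Unadjusted edgeR p-values under 0.05 numbered 4, 2, 3 and 3 in these lists, DESeq2 called 1, 0, 2 and 0 genes and voom 1, 0, 1 and 1. With the animal number term 0 of the other immediate early genes and 0 of the targets passed (medians 0.27 and 0.63), and above number 10 alone 7 and 13 rose. Leaving out 1 kidney gave 0 to 8 of the other immediate early genes and 0 to 16 of the targets. Both lists had 0 without LOY animal 10 or any 1 of Control animals 11, 12, 13, 16 and 17, and the highest counts came without Control animal 3.

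Transcripts of other cells and of injury also differed between the groups. Of 15 macrophage markers 5 rose, and their summed level was 489 to 667 CPM in LOY kidneys against 315 to 453 CPM in Control kidneys. Of 10 T and natural killer cell markers 4 rose, with sums of 26.7 to 48.5 CPM in LOY against 13.3 to 20.6 CPM in Control kidneys and with Ncr1 at 0 in all kidneys. Of 15 tubular injury genes 8 rose, with sums of 4017 to 9594 CPM in LOY against 2142 to 4139 CPM in Control kidneys, and the highest sum was that of LOY animal 10. All 12 proximal tubule markers were lower in LOY kidneys, with 0 past the threshold in edgeR (7 at an unadjusted p under 0.05) and 5 in DESeq2 and 5 in voom, the sums being 6485 to 13717 CPM in LOY against 13056 to 17106 CPM in Control kidneys, and the lowest was again LOY animal 10. These counts also changed with the kidneys kept. Leaving out 1 kidney gave 0 to 11 macrophage, 0 to 5 T and natural killer cell and 0 to 10 tubular injury genes. The number term gave 0 in each. The tubular injury genes lost all calls without LOY animal 10 or without any 1 of Control animals 11, 12, 13, 16 and 17, and without LOY animals 8 and 10 there were 3, with the median at 0.66 in place of 1.30. The macrophage list had 1 call without LOY animal 10 or Control animals 11, 12 or 13 and 0 without Control animals 16 or 17. The T and natural killer cell list had 0 calls without any 1 of LOY animals 5, 9, 10 and 14 or Control animals 11, 12, 13, 16 and 17. Of 10 cytosolic heat shock genes 1 rose, Hspb1. Lists for B cells, neutrophils, endothelium, loop and distal tubule, podocytes, stroma, urothelium, adrenal cortex and fat had 0 genes past the threshold in edgeR. Sums of loop and distal tubule markers nevertheless followed animal number in both groups. They were 4002 to 4442 CPM in LOY animals 5, 8, 9 and 10 and Control animal 3. In the kidneys numbered above 10 they were 4800 to 8844 CPM. Over the 14 lists without a call 13 of 148 list entries were higher and 18 lower at an unadjusted edgeR p under 0.05. DESeq2 called 11 entries and voom 12. Control animal 3, the only Control kidney numbered 10 or below, had the highest Control sum for tubular injury, stroma, urothelium and fat. These sums were 4139, 709, 76.2 and 314 CPM in that order. The other Control kidneys had 2142 to 2594, 375 to 490, 10.1 to 56.2 and 33.9 to 58.7 CPM. The part that cell makeup, injury or collection had in the levels of the immediate early genes was not tested.

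Under ABT-263 all 30 tested members had a negative log2 fold change against the control compound, and none passed the test. The share with a positive change was 0%, beside 49.4% of all tested genes, and the median was -0.52, beside -0.0028 over all genes. In edgeR 0 members and 0 of 16956 genes passed in either direction (0% rose and 0% fell), while DESeq2 called 44 genes and voom 7, each with 1 member, Ier3. At an unadjusted p under 0.05, 6 members were lower (20.0%, beside 2.96% of all genes) and 0 were higher (beside 2.95%). Every ABT-263 kidney lay below every control-compound kidney for 5 members, Ier3, Klf2, Klf4, Ier5 and Dusp6 (16.7%, beside 2.25% of all genes), and above for 0 (beside 2.04%).

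The size of these differences rested in large part on 1 kidney, and without it most members stayed negative, some of them near 0. Control-compound animal 6 was the highest of its group for 25 of 30 members and had a score of 0.69, against 0.16, 0.12 and -0.24 in control-compound animals 10, 8 and 9. It stood more than 2-fold above every other control-compound kidney for 11 members (36.7%), beside 2.47% of all genes. Without it the median log2 fold change was -0.18, 26 of 30 members were negative, and 0 passed. Negative values smaller than their SE included Fosb (-0.0074), Dusp5 (-0.010), Csrnp1 (-0.040), Ier2 (-0.047), Sik1 (-0.062), Fosl2 (-0.070) and Gadd45b (-0.079). ABT-263 animal 16 stood the other way, with a score of 0.18 against -0.35, -0.34 and -0.40 in ABT-263 animals 15, 17 and 18, and was the highest of its group for 18 members. Its summed tubular injury genes reached 21689 CPM, against 2140 to 2940 CPM in the other ABT-263 kidneys and 3037 to 4517 CPM in control-compound kidneys. Leaving out both, a choice made after the values were seen, 5 members fell: Ier3 (-1.09 ± 0.11, edgeR adjusted p = 6.28e-05), Klf6 (-0.64 ± 0.089, adjusted p = 0.00154), Atf3 (-0.94 ± 0.19, adjusted p = 0.0191), Klf4 (-0.63 ± 0.14, adjusted p = 0.0301) and Jun (-0.85 ± 0.16, adjusted p = 0.0465). In that setting 213 genes rose and 175 fell over the whole table, with 3 kidneys left in each group.

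**Figure D3:**
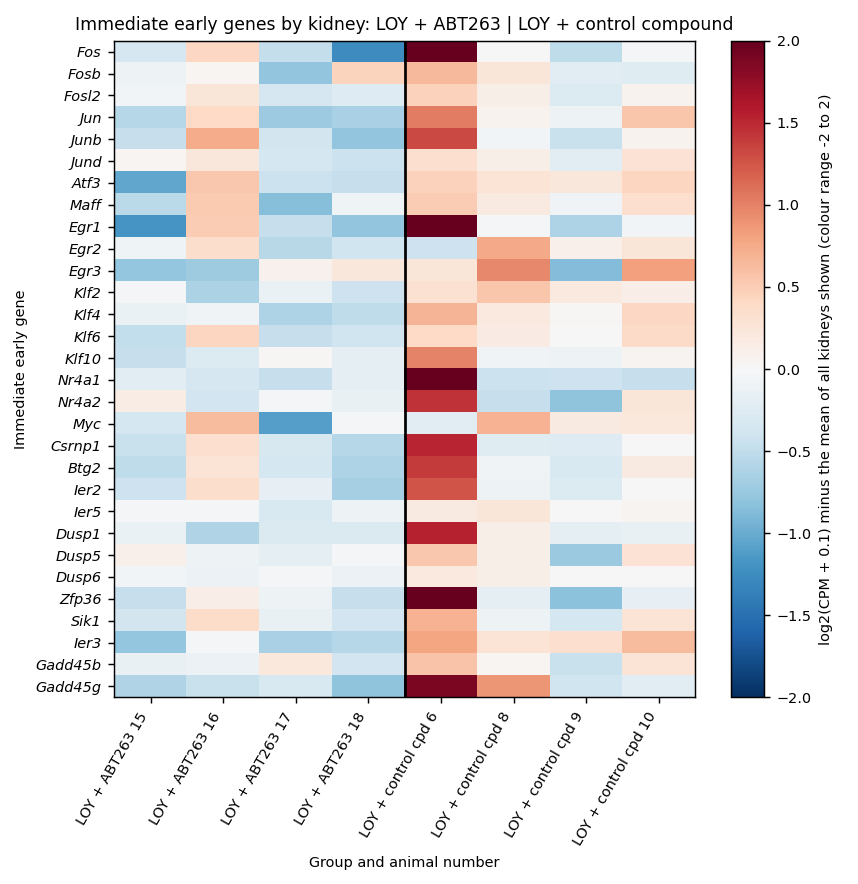
Each cell is the log2(CPM + 0.1) of an immediate early gene (rows) in a kidney (columns) minus the mean over all 8 kidneys, with LOY + ABT263 left of the black line and LOY with control compound right of it, and red for higher. The column of control-compound animal 6 is dark red for Fos, Egr1, Nr4a1, Zfp36 and Gadd45g, while the Ier3 and Klf4 rows are red or pale over all 4 control-compound kidneys.

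Ier3, the survival protein, had the smallest p of the set. Its level was 17.8, 29.7, 19.4 and 20.6 CPM in ABT-263 animals 15 to 18, against 53.0, 37.2, 38.9 and 47.6 CPM in control-compound animals 6, 8, 9 and 10. All 4 treated kidneys were below all 4 others, animal 16 being the nearest. The log2 fold change was -1.01 ± 0.17 (SE, n = 4 each), with an edgeR adjusted p of 0.327, and it passed in 4 of 17 other settings, among them without ABT-263 animal 16 (-1.19, adjusted p = 0.0298). Without control-compound animal 6 it was -0.91 (adjusted p = 0.125). Ier3 lies on chromosome 17 at 35821684 to 35822923 (plus strand).

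Among the KLF factors, Klf4 and Klf2 were lower in every ABT-263 kidney than in any control-compound kidney. Klf4 was 18.1, 18.9, 12.9 and 13.9 CPM in ABT-263 animals 15 to 18, against 31.8, 22.6, 20.2 and 26.3 CPM in control-compound animals 6, 8, 9 and 10. Klf2 was 14.8, 9.77, 13.8 and 11.3 CPM with ABT-263, against 18.8, 22.3, 17.4 and 16.7 CPM with the control compound in the same order of animals. Control-compound animal 6 was the highest for Klf4 and animal 8 for Klf2. The log2 fold changes were -0.66 ± 0.17 for Klf4 and -0.60 ± 0.16 for Klf2 (edgeR adjusted p = 0.657 for both), and without animal 6 they were -0.53 and -0.60. Klf6 was 59.1, 112, 60.5 and 63.3 CPM with ABT-263, against 111, 93.3, 83.6 and 108 CPM with the control compound. Animal 16 alone lay above the control-compound range and the other 3 ABT-263 kidneys below it, and the log2 fold change was -0.42 ± 0.21 (edgeR adjusted p = 0.834). Klf10 was 15.0, 17.0, 21.0 and 18.2 CPM with ABT-263, against 40.9, 19.6, 19.3 and 21.5 CPM with the control compound, and its log2 fold change of -0.50 ± 0.24 was -0.17 without animal 6.

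Jun was 42.8, 83.5, 38.5 and 40.6 CPM in ABT-263 animals 15 to 18, against 129, 66.9, 59.3 and 93.3 CPM in control-compound animals 6, 8, 9 and 10. Atf3 was 3.23, 9.82, 4.97 and 4.83 CPM with ABT-263, against 9.27, 8.16, 7.86 and 9.07 CPM with the control compound. In both genes the overlap came from ABT-263 animal 16. Neither passed: the log2 fold change was -0.76 ± 0.33 for Jun and -0.58 ± 0.29 for Atf3 (edgeR adjusted p = 0.827 for both).

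**Figure D4:**
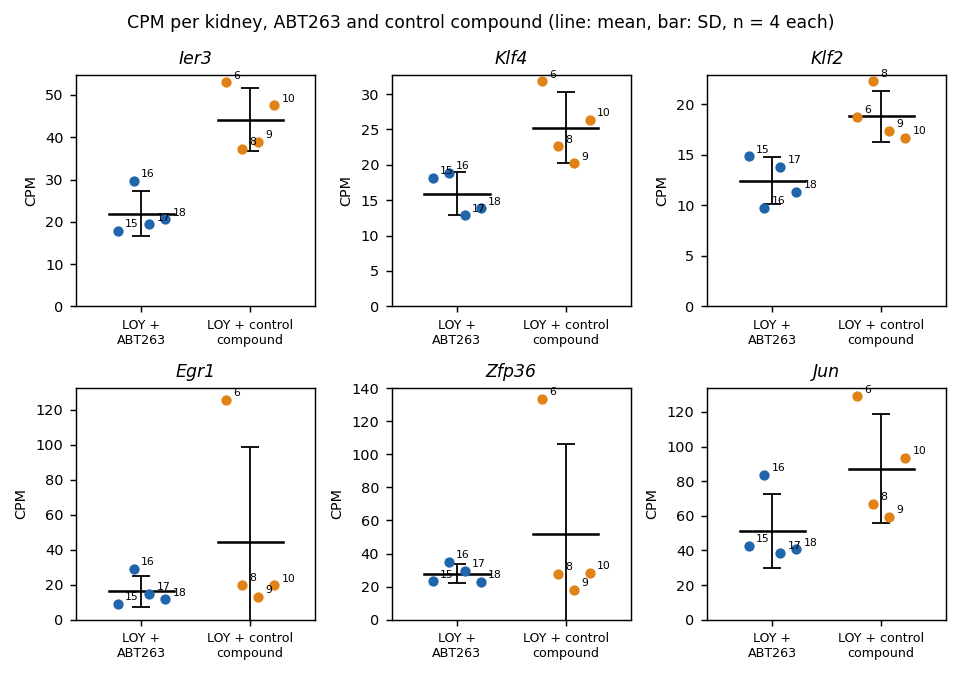
CPM of 6 immediate early genes in each kidney, LOY + ABT263 left and LOY with control compound right, with animal numbers beside the points, a line at the mean and a bar of 1 SD (n = 4 each; bars that reach below 0 end at the axis). Ier3, Klf4 and Klf2 are apart between groups, Egr1 and Zfp36 are high in control-compound animal 6 alone, and Jun overlaps through ABT-263 animal 16.

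The steepest acute genes were chosen for description after their values were seen. Egr1 was 8.97 to 29.1 CPM with ABT-263, against 126 CPM in control-compound animal 6 and 13.2 to 19.9 CPM in the other 3 control-compound kidneys. Nr4a1 was 5.69 to 6.90 CPM with ABT-263, against 45.0 CPM in control-compound animal 6 and 5.68 to 5.88 CPM in the other 3. In both, animal 6 stood alone and the other kidneys overlapped. Zfp36 was 23.0 to 35.0 CPM with ABT-263, against 133 CPM in control-compound animal 6 and 18.0 to 28.4 CPM in the other 3. Fos was 1.38 to 4.62 CPM with ABT-263, against 16.1 CPM in control-compound animal 6 and 2.40 to 3.46 CPM in the other 3. The pattern was the same, with overlap outside animal 6. The log2 fold change was -1.46 ± 0.84 for Egr1, -1.28 ± 0.76 for Nr4a1, -0.90 ± 0.66 for Zfp36 and -1.17 ± 0.65 for Fos with all kidneys, and -0.12, 0.14, 0.17 and -0.14 in that order without animal 6.

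The remaining members of smallest p included feedback and stress genes. Dusp1 was 41.7, 30.0, 37.2 and 37.5 CPM with ABT-263, against 133, 49.4, 40.5 and 41.1 CPM in control-compound animals 6, 8, 9 and 10. Dusp6 was 49.0, 46.6, 49.6 and 47.1 CPM with ABT-263, against 58.1, 55.2, 51.0 and 51.1 CPM with the control compound. Dusp6 was apart by a small step, -0.16 ± 0.075, while Dusp1 (-0.85 ± 0.41) overlapped and was -0.26 without animal 6. Gadd45g was 24.3, 27.1, 29.8 and 21.0 CPM with ABT-263, against 137, 68.3, 28.0 and 31.9 CPM with the control compound. Ier5 was 32.8, 32.4, 27.0 and 31.1 CPM with ABT-263, against 37.6, 39.5, 33.5 and 34.6 CPM with the control compound. Gadd45g had -1.37 ± 0.51 with control-compound animal 9 inside the ABT-263 range, and Ier5 had -0.24 ± 0.095 with the groups apart. The edgeR adjusted p was 0.829 for Dusp1 and 0.827 for Dusp6, Gadd45g and Ier5. The other 15 tested members had log2 fold changes between -0.78 (Egr3) and -0.17 (Dusp5), and Fosl1 was below the filter with 14 reads over the ABT-263 and 33 over the control-compound kidneys.

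**Figure D5:**
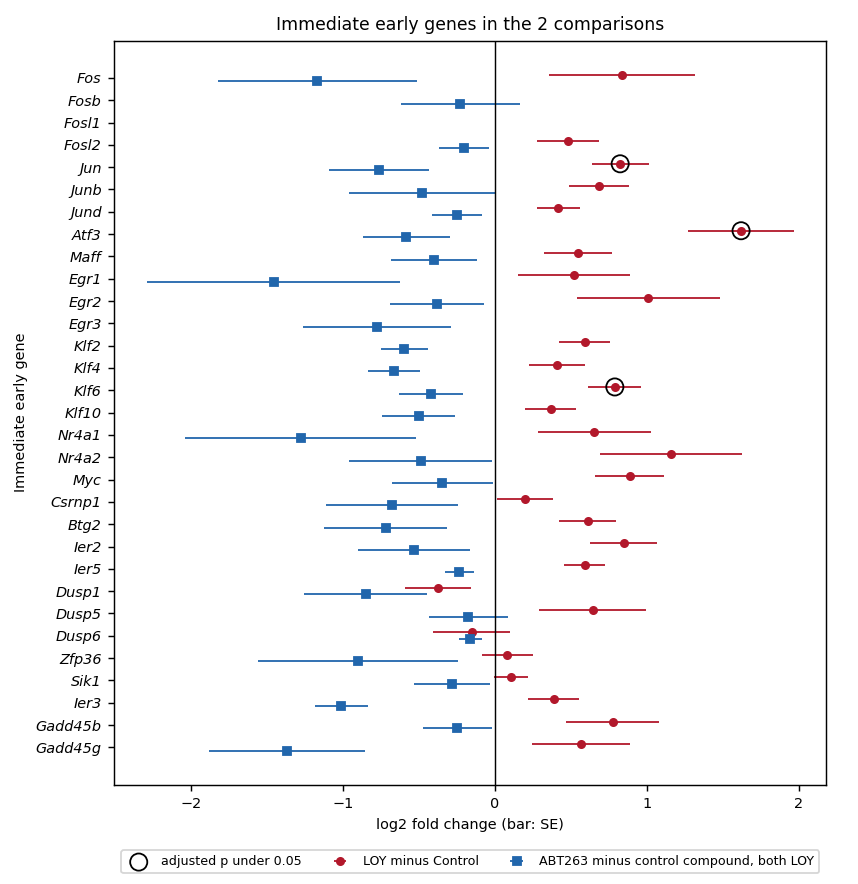
Log2 fold change with SE of each member in the LOY over Control comparison (circles) and the ABT-263 over control-compound comparison (squares), with black rings at an adjusted p under 0.05 and members below the count filter left blank. Rings mark Jun, Atf3 and Klf6 with LOY, all squares lie below 0, and the bars of Egr1, Nr4a1, Fos and Zfp36 with ABT-263 are the longest.

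Related lists under ABT-263 gave 0 genes past the threshold in edgeR for all 20 lists. Of 263 list entries, where a gene on 2 lists counts in each, 5 were higher and 39 lower at an unadjusted edgeR p under 0.05. DESeq2 called 6 entries and voom 2. Of 34 other immediate early genes 32 were negative (median log2 fold change -0.22), with the smallest p for Nr4a3 (-1.20 ± 0.33, adjusted p = 0.657). Of 28 AP-1 or EGR1 targets 22 were negative (median -0.19), with the smallest p for the matricellular gene Ccn1 (-1.03 ± 0.17, adjusted p = 0.327). Summed targets reached 19561 CPM in ABT-263 animal 16, against 3093 to 3774 CPM in the other ABT-263 kidneys and 3895 to 4837 CPM with the control compound. The kinase, SRF and CREB, AP-1 partner and feedback lists had medians between -0.097 and -0.0083. Summed macrophage markers were 468 to 529 CPM with ABT-263 and 489 to 792 CPM with the control compound, and summed B cell markers were 30.2 to 93.5 CPM with ABT-263 against 205 to 427 CPM with the control compound. Of 10 cytosolic heat shock genes 5 were lower at an unadjusted edgeR p under 0.05, with sums of 2428 to 2739 CPM with ABT-263 and 2496 to 4172 CPM with the control compound. Control-compound animal 6 had the lowest of the control-compound sums and animal 9 the highest. Urothelium markers summed to 25.0 to 40.7 CPM with ABT-263, against 60.8 CPM in control-compound animal 6 and 13.1 to 18.2 CPM in the other 3. Their part in the lower values was not tested, and treatment and animal number cannot be told apart in this table. The 2 comparisons come from separately scaled tables, so levels were not set across them.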

How the data were processed

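Per the labels' protocols, kidney RNA was purified with QIAzol and RNeasy reagents and sequenced on a NovaSeq X. The values are raw counts per gene that the authors deposited. The genome build is mm10 per the submitters' processing notes. Alignment and counting programs, gene models and use of strand were not given in the sources used here. Reads without a gene in the LOY table (0.223% to 0.401% of counts) were left out.

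The 2 tables were tested apart, LOY against Control and ABT-263 against control compound, with edgeR 4.0.16 in R 4.3.3 (quasi-likelihood F test with robust dispersions, TMM scaling, and filterByExpr at its settings of 10 reads per kidney and 15 in all) and Benjamini-Hochberg adjustment over all tested genes at 0.05. Replicates are 1 kidney per numbered animal, so p-values set the difference between groups against the spread between these kidneys. An SE was taken as the absolute log2 fold change divided by √F, and CPM use TMM-scaled totals. DESeq2 1.42.0, voom with quality weights (limma 3.58.1), other scalings and filters, animal number, and leaving out each kidney were alternatives. The scripts were tested on simulated data. Gene positions are from GENCODE M21 (GRCm38) and promoters from RefSeq (GRCm38.p6).

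The members and lists were chosen with earlier results of these data known. Members past the threshold and those of the 10 smallest p in each comparison are given by lowest, median and highest kidney (LOY table) or by every kidney (ABT-263 table), and other members by ranges or fold changes; from each list up to 3 genes past the threshold, or the 1 of smallest p, could be named.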

Additional observations from a re-analysis of the deposited data

Results flagged for a closer look

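In 19 of 116 groups of kidneys examined over the tested members, 1 kidney stood apart from the rest of its group by Dixon's test on CPM, and in each it was the high one. For normally distributed values chance marks about 1 in 20 such groups. Over all tested genes the observed share was higher: 11.5% of groups in the LOY table, beside 16.1% for the members. In the ABT-263 table it was 7.80%, beside 16.7% for the members. In the LOY table LOY animal 8 stood apart for Jund (634 CPM, the other LOY kidneys 365 to 442) and Gadd45g (168, others 39.0 to 76.2), LOY animal 10 for Myc (37.3, others 15.6 to 23.7) and LOY animal 18 for Nr4a1 (21.8, others 5.67 to 9.37). Control animal 3 stood apart for Atf3 (6.65, other Control kidneys 1.72 to 3.42), Egr2 (3.47, others 0.388 to 1.39) and Klf4 (19.4, others 12.1 to 14.4), and Control animal 17 for Egr1 (39.7, others 8.43 to 15.3) and Nr4a1 (13.7, others 3.50 to 7.17). LOY animal 8 was the high outlier for 7.14% of members and for 8.45% of all genes, LOY animals 10 and 18 for 3.57% of members each and for 1.34% and 0.374% of all genes. Control animal 3 was so for 10.7% of members and 4.93% of all genes, and Control animal 17 for 7.14% and 0.294%.

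In the second table ABT-263 animal 16 stood apart for Jun (83.5 CPM, the other ABT-263 kidneys 38.5 to 42.8) and Klf6 (112, others 59.1 to 63.3), which is 6.67% of members, beside 2.72% of all genes. Control-compound animal 6 stood apart for 8 of 30 members (26.7%), beside 4.29% of all tested genes. These were Fos (16.1 CPM, others 2.40 to 3.46), Egr1 (126, others 13.2 to 19.9), Klf10 (40.9, others 19.3 to 21.5), Nr4a1 (45.0, others 5.68 to 5.88), Csrnp1 (30.4, others 8.76 to 10.5), Ier2 (31.8, others 11.0 to 13.1), Dusp1 (133, others 40.5 to 49.4) and Zfp36 (133, others 18.0 to 28.4). Control-compound animal 6 also had the highest mitochondrial share, 11.1%, and ABT-263 animal 16 the highest sum of tubular injury genes, 21689 CPM; the part of either in these values was not tested.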

How the results depend on the processing

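The 3 members past the threshold with LOY (176 genes in all) were 8 (549) at an adjusted p of 0.1, 0 (105) with totals alone, 9 (866) in DESeq2, 9 (1077) in voom, 0 (0) with an animal number term, 4 (451) above number 10 alone and 1 (29) without LOY animals 8 and 10. Without LOY animals 10 and 18 and Control animal 17, chosen after seeing the data, they were 0 (0). Leaving out 1 kidney gave 0 to 8 members and 0 to 607 genes. Other scalings and filters gave 2 to 3 members and 130 to 175 genes. The members' median stayed between 0.40 and 0.65. Under ABT-263 the 0 members (0 genes) became 1 (44) in DESeq2, 1 (7) in voom and 5 (388) without control-compound animal 6 and ABT-263 animal 16, again chosen after seeing the data; leaving out 1 kidney gave 0 to 1 members and 0 to 9 genes. The causes were not tested.

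Signs turned for members that did not pass; leaving out 1 kidney at a time reached at the other end -0.30 for Dusp6 and 0.15 for Zfp36 with LOY, and under ABT-263 -0.91 for Junb, -1.56 for Nr4a1, -0.74 for Nr4a2 and -1.18 for Zfp36. With LOY, Csrnp1 was -0.013 in voom. Dusp6 was 0.012 without LOY animal 8, 0.16 with the number term and 0.012 above number 10 alone. Zfp36 was -0.12 in voom, -0.031 without LOY animal 10, -0.089 without LOY animals 8 and 10 and -0.037 without LOY 10, LOY 18 and Control 17. Under ABT-263, without control-compound animal 6, Junb was 0.033, Nr4a1 0.14, Nr4a2 0.18 and Zfp36 0.17. Without animals 6 and 16, Nr4a1 was 0.15, Nr4a2 0.27, Dusp5 0.0060 and Zfp36 0.036, and Nr4a2 was 0.22 in voom. With LOY 597 of 672 member results under other settings, and under ABT-263 491 of 508, kept direction and side of the threshold. Most came from members short of the threshold in the main test, which had no call to lose, so these counts do not measure how firm the calls were. With LOY 40 results lost a call, all of them from Atf3, Klf6 and Jun, which passed in 13, 12 and 7 of 24 other settings.

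No paired analysis was possible because the groups compared share no animal number. Genes of few reads (Fosb, Fosl1, Egr3) limit what depth can show.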
